A study of Mus musculus with 4 samples.

Results

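The genes of 4 related families were examined in ID8G and GO2 mouse ovarian cancer cells: the matrix metalloproteases (Mmp), the ADAM proteases (Adam), the ADAMTS proteases with the enzymatically inactive ADAMTS-like proteins (Adamts, Adamtsl), and the tissue inhibitors of metalloproteases (Timp). Members were all probes of the array, controls excepted, whose RefSeq accession belongs to a gene with a symbol that starts with Mmp, Adam or Timp and a number, or with Adamts. The rule itself used no measured value, although it was chosen with earlier results of these data known. The rule gave 84 of the 22911 genes named on the array, with 128 of its 56605 probes, and 32994 probes (58.3%) could be named by accession.

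ID8G cells are ID8 cells, a transformed line from the ovarian surface epithelium of C57BL/6 mice, that carry GFP from a retroviral vector. GO2 cells are GFP+ CD45- cells sorted from omental tumors after 2 successive rounds of growth of ID8G cells in female C57BL/6 J mice. Both lines therefore carry GFP, and both were cultured in the same medium, which contained FBS, insulin, transferrin and sodium selenite, before RNA was taken. GO2 is a single selected line with no independent second selection, so that passage through mice, sorting and the particular line cannot be told apart. Each line was measured on 2 one-colour arrays, and whether these came from separate cultures is not stated, so p-values measure only the spread between arrays, which may be technical.

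Metalloproteases of these families use a zinc ion to cut proteins outside the cell. Secreted Mmp enzymes cut collagens and other matrix proteins, membrane-type Mmp enzymes do so at the cell surface and can activate other Mmp proenzymes, ADAM enzymes release the outer parts of membrane proteins, and ADAMTS enzymes process procollagen or cut proteoglycans of the matrix. The 4 Timp proteins bind and block these enzymes, and Timp3, which is held in the matrix, blocks ADAM and ADAMTS enzymes as well. In ovarian cancer this system is known for the remodelling of the matrix over which tumor cells attach and spread in the peritoneal cavity.

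A level below is the processed intensity of a probe relative to the 75th percentile of its own array, on the log2 scale, so that 0 is a bright probe and levels of different probes cannot be ranked against each other. That percentile was an intensity of 627 to 675 on the 4 arrays, and 48.6% to 51% of the probes were well above background on an array. The lowest level well above background lay between -3.85 and -3.53. Probes entered the limma test where both arrays of 1 line or of both showed them well above background, which 28368 probes did. A call needed an adjusted p below 0.05 (Benjamini-Hochberg, over all of these) together with a difference of at least 2-fold. Replicate arrays correlated at r = 0.997 in both lines, no spot was saturated, and with 2 arrays against 2 the smallest p of an exact two-sided permutation test is 0.33, so no such test is given. The number of arrays limits the precision of every value. Lack of overlap between the arrays of the 2 lines, given below for some probes, therefore adds nothing to a call. It also held for probes without a call, such as Adam11 (log2 difference -0.07) and Mmp19 (0.05).

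All 6 markers of mesothelium and ovarian surface were well above background. Among them Upk3b was called higher in GO2 cells (log2 difference 1.08), and Msln differed by -0.82 without a call. Of 6 epithelial markers 4 were above background, while Epcam and Krt7 were not on any array. Of 6 macrophage markers, Cd14, Cd68 and Csf1r gave signals well above background on each of the 4 arrays, and Ptprc, Adgre1 and Lyz2 were not on any. The summed linear level of this list was 6.07 to 6.15 in ID8G cells and 5.34 to 5.68 in GO2 cells, none of its genes was called, and the Cd14 probes differed by -0.69 and -0.67 (adjusted p = 0.00210 and 0.00298). The summed linear level of the epithelial list was 543 to 561 in ID8G cells and 284 to 286 in GO2 cells, with Krt19 called lower in GO2 cells (log2 difference -1.65). The fibroblast list had 4 of 6 markers above background, and its summed linear level was 65.9 to 68.7 in ID8G cells and 64.4 to 66.8 in GO2 cells, although Pdgfra (log2 difference 3.70) and Col3a1 (4.20) were called higher in GO2 cells, as was Pdgfrb, which was not well above background in ID8G cells and was at least 2.42-fold higher. Dcn, whose levels of 6.07 and 6.01 made most of the fibroblast sum in ID8G cells, differed by -0.63 and was not called. Such a sum follows the brightest probes and does not describe the list as a whole. Lum and Thy1 were not above background on any array. The part of these shifts in the results that follow was not tested, and fewer cells of a kind cannot be told apart from less RNA per cell in such bulk samples.

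In GO2 cells, transcripts for membrane-type proteases (Mmp14, Mmp16), ADAMTS enzymes that cut proteoglycans (Adamts1, Adamts4, Adamts5) or process procollagen (Adamts2, Adamts3), Adam33, the ADAMTS-like protein Adamtsl4 and the inhibitor Timp3 were higher than in ID8G cells. Those for the secreted proteases Mmp8, Mmp10 and Mmp13, for Adamts7 and for the inhibitor Timp4 were lower. The Adam33 and Adamts3 calls rest on probes not well above background in ID8G cells, and the Timp4 call on a probe dim in GO2 cells. Their bounds, given below, were under 2-fold. By the brightest probe of each gene 9 genes were called higher, as that of Adam33 was not called. With limma treat, which tests against a log2 difference of 1, Mmp10 was the gene still called lower. Of the 128 member probes, 49 probes for 37 genes were tested, and 13 probes (10 genes) were called higher and 5 probes (5 genes) lower in GO2 cells. Over all probes tested, 4.5% were called higher and 3.34% lower, and over all genes with a symbol 6.44% and 4.33%. With scaling to the spike-ins the member split was 11 higher and 7 lower. Of the 49 tested member probes, 9 were dim (not well above background) on 1 ID8G array or on both and 1 was dim on the GO2 arrays, and these entered the test only because they were bright in the other line. Among the 39 member probes above background on all 4 arrays, 6 were called higher and 4 lower, where 2.55% and 2.32% of all such probes were. By the adjusted p alone, 25 member probes were higher and 10 lower, where 17% and 18.9% of all probes tested were.

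The median log2 difference of the 37 tested member genes, each by its brightest probe, was 0.32, and that of all genes tested was -0.0004. The member median was 0.11 with scaling to the spike-ins and -0.044 without the filter on dim probes. For the 30 member genes whose brightest probe was above background on all 4 arrays the median was 0.21, against -0.0071 for all such genes. The remaining 47 member genes were not tested, and 41 of them were not well above background on any array. These 41 included Mmp9, Mmp3 and Mmp7 and 17 of the 22 ADAM genes outside the catalytic somatic and neural groups, many of which are known from testis.

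**Figure D1:**
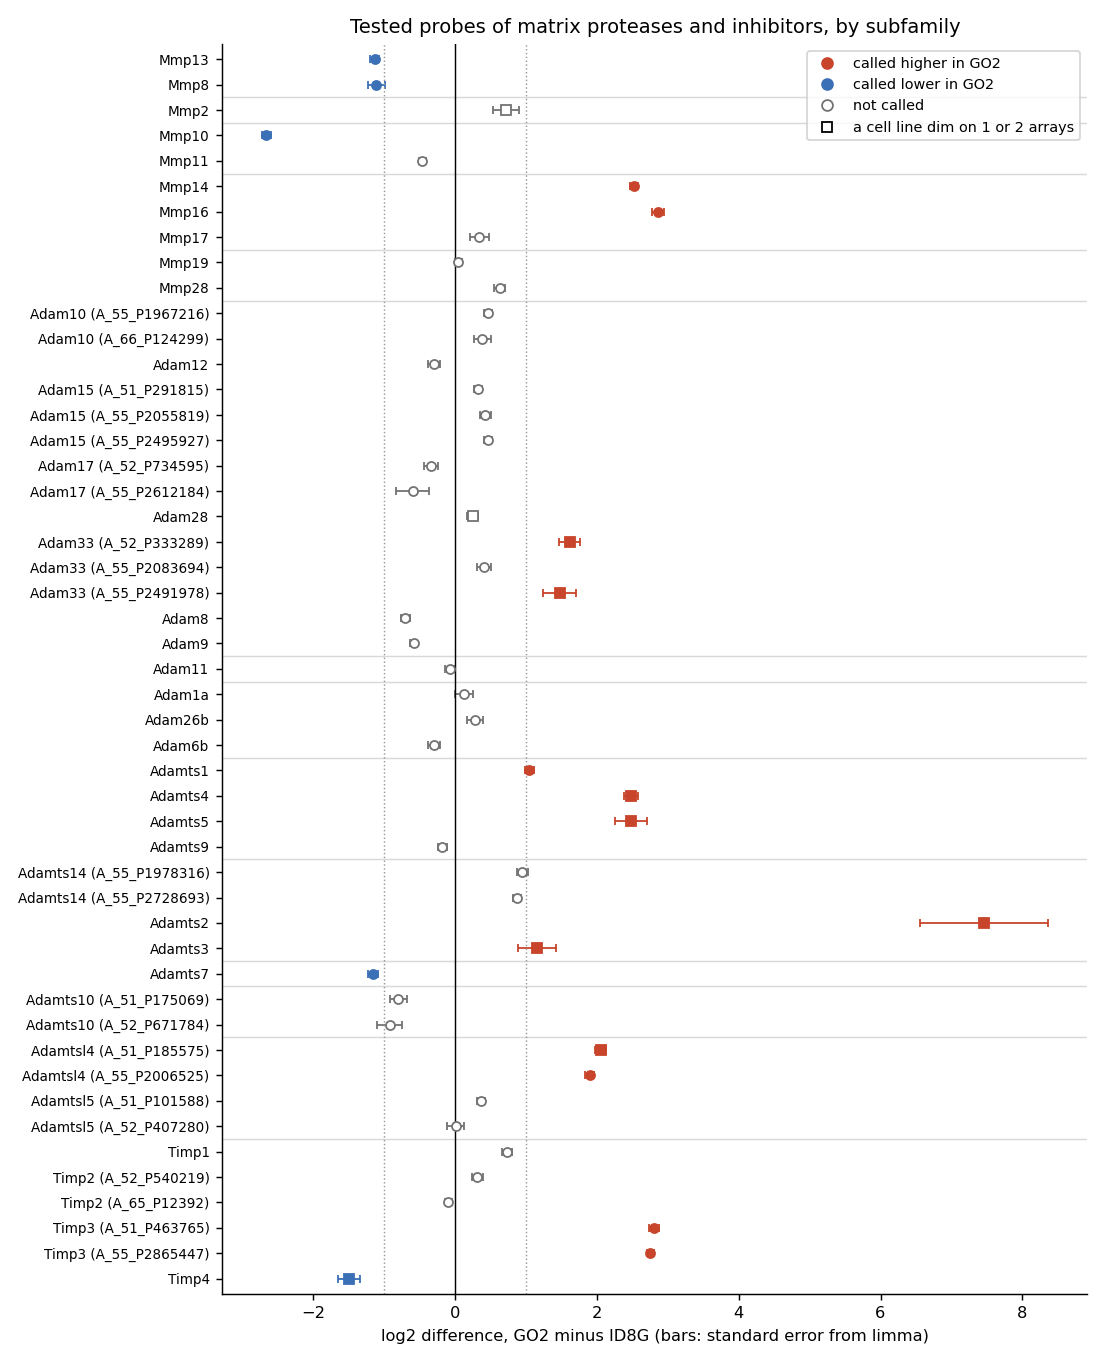
Log2 difference between GO2 and ID8G cells (x axis, GO2 minus ID8G) for each of the 49 tested member probes, ordered by subfamily, with bars for the standard error from limma and dotted lines at a 2-fold difference. Red marks the 13 probes called higher in GO2 cells, blue the 5 called lower, open symbols those not called, and squares the probes that were dim, that is not well above background, on an array. Differences ran from -2.66 for Mmp10 to 7.46 for Adamts2, which also had the widest bar.

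Membrane-type metalloproteases are anchored at the cell surface. Mmp14 (chromosome 14), known as the main cell-surface activator of the gelatinase Mmp2 and a collagenase in its own right, had levels of -2.64 and -2.73 on the ID8G arrays and of -0.14 and -0.18 on the GO2 arrays. Both GO2 arrays were above both ID8G arrays, and the line means were far apart relative to the spread of the arrays. The log2 difference was 2.53 ± 0.06 (SE), or 5.76-fold (adjusted p = 0.000242). Mmp16 (chromosome 4), a second membrane-type activator of Mmp2, had levels of -3.21 and -3.05 in ID8G cells and of -0.22 and -0.31 in GO2 cells. The groups again did not overlap, and the difference was 2.87 ± 0.08, or 7.29-fold (adjusted p = 0.000303). A second Mmp16 probe was above background on 1 GO2 array alone and was not tested. Mmp17, which is attached by a lipid anchor, differed by 0.34 ± 0.13 and did not pass (adjusted p = 0.114), and of the other 3 genes of the group, Mmp24 and Mmp25 were not above background on any array and Mmp15 was on 1 ID8G array alone.

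Mmp2 itself, a gelatinase that cuts denatured collagen and basement membrane collagen, was not well above background in ID8G cells, at -3.44 and -3.92, and lay at -2.87 and -3.06 on the GO2 arrays. The measured difference was 0.72 ± 0.19 (adjusted p = 0.0480), below the 2-fold limit, and GO2 cells were at least 1.59-fold higher when set against the lowest signal well above background. Mmp9, the second gelatinase, was not above background on any array with either of its probes.

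The called genes among the secreted collagenases and stromelysins were lower in GO2 cells. Mmp10 (stromelysin 2), which cuts proteoglycans and fibronectin and activates other Mmp proenzymes, had levels of 0.97 and 1.08 on the ID8G arrays and of -1.63 and -1.65 on the GO2 arrays. All 4 arrays were well above background and the groups did not overlap. Mmp10 fell by 2.66 ± 0.06 on the log2 scale in GO2 cells, and was 6.32-fold higher in ID8G cells (adjusted p = 0.000242). Mmp13, a collagenase that cuts fibrillar collagen, had levels of -1.67 and -1.61 in ID8G cells and of -2.73 and -2.81 in GO2 cells. Its difference was -1.13 ± 0.06 (adjusted p = 0.000975). Mmp8, the collagenase best known from neutrophils, had levels of -1.76 and -1.81 in ID8G cells and of -2.74 and -3.05 in GO2 cells, a difference of -1.11 ± 0.12 (adjusted p = 0.00547). Both ID8G arrays lay above both GO2 arrays for Mmp13 and Mmp8, but these differences were little over 2-fold. Neither was called with normexp background correction, at -0.73 and -0.69, or with limma treat. Mmp8 also missed the 2-fold limit without the second GO2 array, at -0.96. Mmp11, a stromelysin by name that acts little on matrix proteins, differed by -0.46 (adjusted p = 0.00673) and was not called.

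Mmp8, Mmp10 and Mmp13 belong to a run of Mmp genes on chromosome 9, in the order Mmp13, Mmp12, Mmp1b, Mmp3, Mmp1a, Mmp10, Mmp8, Mmp27, Mmp20 and Mmp7 in the RefSeq annotation. Of these 10 genes 9 had a probe, the 3 called ones were all lower in GO2 cells, and the other 6 on the array were not well above background on any array. These 6 therefore gave no direction.

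**Figure D2:**
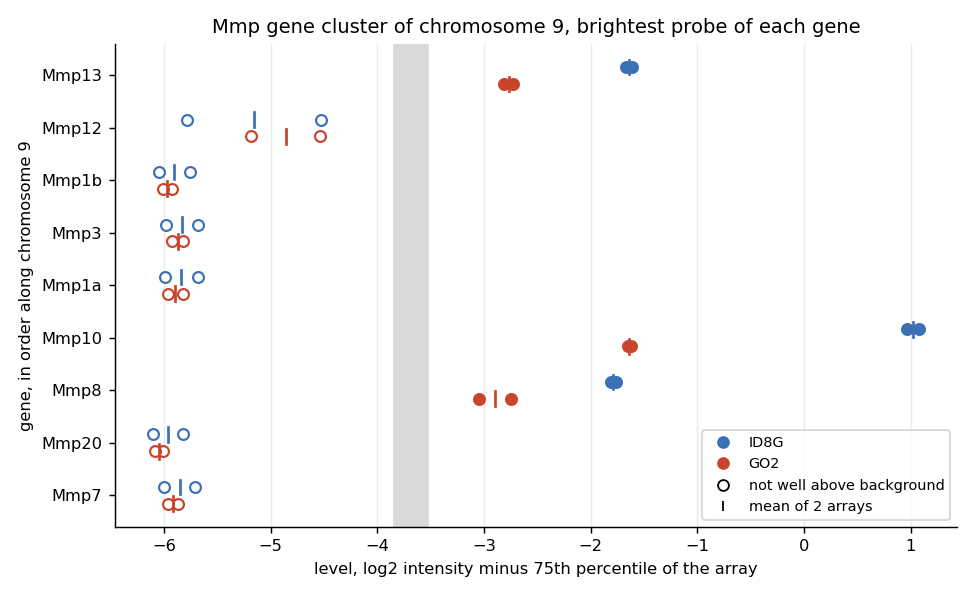
Level on each array (x axis, log2 intensity relative to the array's 75th percentile) for the brightest probe of 9 genes in the Mmp run of chromosome 9, in their order along the chromosome, with blue for ID8G, red for GO2, open points for spots not well above background, short lines for the means of 2 arrays and a grey band for the range, over the arrays, of the lowest level well above background. Mmp13, Mmp10 and Mmp8 are the genes to the right of the band, each with both ID8G points above both GO2 points, while the other 6 genes lie to the left of it.

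The promoters of the 3 called genes of this run are shown because Mmp genes of this locus are known for AP-1 sites close to the start. Whether the 3 genes share a regulation was not tested. Each line gives the 250 bases before the RefSeq transcription start (GRCm38.p6, plus strand), with capitals for motif matches. The motifs were AP-1 (TGAGTCA), PEA3 (AGGAAG) and the GC box (GGGCGG), each searched on either strand, and the TATA box (TATAAA), searched on the forward strand. Mmp10 lies at chr9:7502092-7502341, Mmp13 at chr9:7272264-7272513 and Mmp8 at chr9:7558179-7558428.
Mmp10: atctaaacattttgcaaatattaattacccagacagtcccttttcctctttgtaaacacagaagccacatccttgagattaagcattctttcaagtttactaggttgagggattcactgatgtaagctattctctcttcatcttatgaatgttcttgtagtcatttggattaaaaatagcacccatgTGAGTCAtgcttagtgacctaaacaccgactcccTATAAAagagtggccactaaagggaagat
Mmp13: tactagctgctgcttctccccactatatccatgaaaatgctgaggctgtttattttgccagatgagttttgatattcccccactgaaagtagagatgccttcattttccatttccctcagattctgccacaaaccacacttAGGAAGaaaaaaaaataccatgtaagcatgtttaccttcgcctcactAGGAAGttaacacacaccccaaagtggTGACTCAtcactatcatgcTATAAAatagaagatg
Mmp8: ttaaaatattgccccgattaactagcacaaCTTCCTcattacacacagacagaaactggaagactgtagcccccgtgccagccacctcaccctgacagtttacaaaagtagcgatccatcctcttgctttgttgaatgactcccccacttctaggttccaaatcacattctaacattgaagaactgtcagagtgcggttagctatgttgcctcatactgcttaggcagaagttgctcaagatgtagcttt

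In the Mmp10 promoter an AP-1 match began 63 bases and a TATA box 29 bases before the start, and the window held no PEA3 or GC box match. The Mmp13 promoter held an AP-1 match 35 bases and a TATA box 16 bases before the start, with 2 PEA3 matches upstream. The Mmp8 window held 1 PEA3 match and none of the other motifs. AP-1 matches stood in 7 of the 9 genes of the run that had a window, 5 of which were not above background on any array, and in 2 of the 44 member genes with a window outside the run. Over all 32851 promoter windows, 4.46% held an AP-1 match, 29.5% a PEA3 match, 7.59% a TATA box and 32.7% a GC box. These matches describe letters and not sites in use.

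The promoters of Mmp14 (chr14:54431348-54431597, plus strand) and Timp3 (chr10:86300162-86300411, plus strand), a protease and an inhibitor called higher in GO2 cells, are given beside them with the same marking.
Mmp14: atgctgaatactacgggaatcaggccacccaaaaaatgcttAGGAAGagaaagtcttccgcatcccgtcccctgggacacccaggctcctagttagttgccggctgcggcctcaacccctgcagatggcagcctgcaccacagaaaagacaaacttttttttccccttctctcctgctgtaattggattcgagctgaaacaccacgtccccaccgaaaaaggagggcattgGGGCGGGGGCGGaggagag
Timp3: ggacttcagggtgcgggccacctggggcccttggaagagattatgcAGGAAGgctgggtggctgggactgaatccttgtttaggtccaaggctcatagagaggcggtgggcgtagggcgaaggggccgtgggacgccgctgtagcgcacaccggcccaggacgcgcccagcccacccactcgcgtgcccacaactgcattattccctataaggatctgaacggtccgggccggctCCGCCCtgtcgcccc

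Neither window held an AP-1 match or a TATA box. The Mmp14 window held 1 PEA3 match and 2 adjoining GC box matches close to the start, and the Timp3 window held 1 PEA3 match and 1 GC box match. Of the 15 called genes 10 had a promoter window, and among these 2 held an AP-1 match, 5 a PEA3 match, 3 a TATA box and 6 a GC box.

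Among the remaining Mmp genes, Mmp28, known from epithelia, had a log2 difference of 0.63 (adjusted p = 0.00823), below the 2-fold limit. Mmp19 differed by 0.05 ± 0.05, and its adjusted p was 0.498. Each of these genes had another probe that was not above background on any array. Mmp23 was above background on 1 array of each line and was not tested, and Mmp12, Mmp20 and Mmp21 were not above background on any array.

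Adamts2, Adamts3 and Adamts14 are the procollagen N-proteinases, which remove the amino-terminal propeptide of fibrillar collagens. Adamts2 (chromosome 11) had levels of 3.01 and 3.02 on the GO2 arrays, against -5.74 and -3.16 on the ID8G arrays, of which the first was not well above background. The groups did not overlap and the measured log2 difference of 7.46 ± 0.90 was the largest among the members (adjusted p = 0.00753). Its size rests on how dim the first ID8G array was, since it was 6.17 without that array and 8.75 without the second. The call was lost without either GO2 array, at an adjusted p of 0.0518 or 0.0514 with the difference at 7.47 or 7.45. A second Adamts2 probe was not well above background on any array, at -5.69 and -4.96 in ID8G cells and -3.61 and -3.63 in GO2 cells.

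Adamts14 had a log2 difference of 0.95 ± 0.08 with its brighter probe and of 0.88 ± 0.05 with the other, just outside the 2-fold limit, and both passed the adjusted p alone (0.00296 and 0.00140). Adamts3 (chromosome 5) had levels of -4.93 and -4.19 in ID8G cells, neither well above background, and of -3.46 and -3.36 in GO2 cells. The measured difference was 1.15 ± 0.27 (adjusted p = 0.0367), and GO2 cells were at least 1.21-fold higher, so that a 2-fold difference rests on signals within the background. Adamts3 lost its call when any of the arrays but the second ID8G array was left out. The call was also lost with normexp background correction, at 0.41, and with scaling to the spike-ins, at 0.95. It did not hold without the filter on dim probes or with limma treat.

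The aggrecanase-type ADAMTS enzymes cut aggrecan, versican and related proteoglycans. Adamts4 (chromosome 1) had levels of -3.54 and -3.76 in ID8G cells, the first not well above background, and of -1.13 and -1.20 in GO2 cells. Adamts5 (chromosome 16) had levels of -4.19, not well above background, and -3.58 in ID8G cells and of -1.33 and -1.48 in GO2 cells. In both genes the GO2 arrays lay well above the ID8G arrays, with log2 differences of 2.48 ± 0.09 for Adamts4 (adjusted p = 0.000485) and 2.48 ± 0.23 for Adamts5 (adjusted p = 0.00374), or 5.59-fold and 5.58-fold. A second Adamts5 probe was not above background on any array.

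Adamts1 (chromosome 16), which also cuts versican, was bright in both lines, at 0.77 and 0.86 in ID8G cells and at 1.84 and 1.89 in GO2 cells. Its difference of 1.05 ± 0.06, or 2.07-fold (adjusted p = 0.00117), was just inside the 2-fold limit, and it fell to 0.97 with normexp background correction and to 0.84 with scaling to the spike-ins, where it was no longer called. Adamts9 differed by -0.18 ± 0.06 and did not pass (adjusted p = 0.0837). Adamts8 and Adamts15 were not above background on any array, and Adamts20 was on 1 ID8G array.

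Adamts7 (chromosome 9), which cuts cartilage oligomeric matrix protein, was the ADAMTS gene called lower. Its levels were 1.45 and 1.48 in ID8G cells and 0.24 and 0.38 in GO2 cells. The groups did not overlap, and the difference was -1.15 ± 0.07 (adjusted p = 0.00133). This call was lost with limma treat. Adamts12, the related enzyme with the same substrate, was not above background on any array. Adamts10, which acts on fibrillin microfibrils, had differences of -0.80 and -0.92 with its 2 probes (adjusted p = 0.0118 and 0.0230), outside the 2-fold limit. Scaling to the spike-ins, which shifted all probes by -0.21, brought both Adamts10 probes past it, at -1.01 and -1.12.

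Adamtsl4 (chromosome 3), an ADAMTS-like protein without protease activity that binds fibrillin, was called higher with both of its tested probes. The brighter had levels of -1.15 and -1.03 in ID8G cells and of 0.83 and 0.80 in GO2 cells. Its difference was 1.90 ± 0.07, or 3.73-fold (adjusted p = 0.000413), and that of the other probe was 2.06 ± 0.08, with 1 ID8G array not well above background. Both probes showed GO2 arrays above ID8G arrays without overlap. Adamtsl5 differed by 0.37 ± 0.06 with its brighter probe (adjusted p = 0.0145) and by 0.01 with the other (adjusted p = 0.952), and the other 3 ADAMTS-like genes were not above background on any array.

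**Figure D3:**
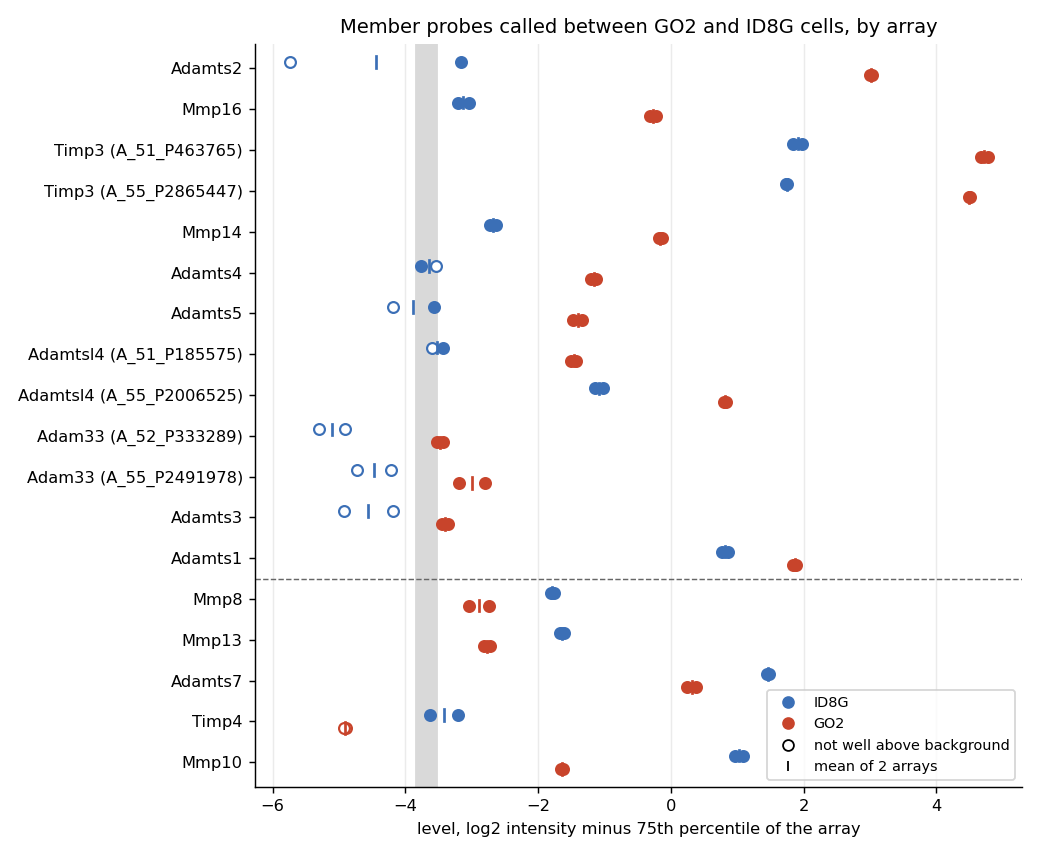
Level on each array (x axis, log2 intensity relative to the array's 75th percentile) for the 18 called member probes, ordered by their difference, with those called higher in GO2 cells above the dashed line and those called lower under it. Blue is ID8G, red is GO2, open points were not well above background, short lines are means of 2 arrays, and the grey band is the range over arrays of the lowest level well above background. For each probe the 2 lines do not overlap, which also held for probes that were not called, such as Adam11 and Mmp19. The ID8G points of Adam33 and Adamts3 and the GO2 points of Timp4 lie to the left of the band.

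ADAM proteases are known for shedding membrane proteins. Of the 9 ADAM genes grouped as sheddases and other catalytic somatic ADAM genes 8 were tested, and Adam33 (chromosome 2) was the gene with called probes. Its probes disagreed. The brightest had levels of -2.12 and -2.20 in ID8G cells and of -1.86 and -1.64 in GO2 cells, a difference of 0.41 ± 0.09 that was under 2-fold (adjusted p = 0.0366). Another probe was not above background on any array and was not tested. The remaining 2 were dim on the ID8G arrays and were called, with measured differences of 1.62 and 1.48, but GO2 cells were at least 1.14-fold and 1.60-fold higher against the lowest signal well above background. Neither call held with normexp background correction, at 0.63 and 0.67, or with a floor at that lowest signal, at 0.19 and 0.68. Both were also lost with limma treat. The second lost its call without the filter on dim probes, and without the second GO2 array, at 1.28.

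Adam10 and Adam17, the sheddases best known for Notch and for TNF and EGF receptor ligands, were not called. Adam10 differed by 0.46 ± 0.06 with its brighter probe (adjusted p = 0.00735) and by 0.39 with the other (adjusted p = 0.0664), and Adam17 by -0.34 ± 0.10 and -0.60 ± 0.23 (adjusted p = 0.0736 and 0.121). The 3 Adam15 probes lay between 0.32 and 0.47 and passed the adjusted p without reaching 2-fold. Adam9, bright in both lines at 4.31 in ID8G cells and 3.73 in GO2 cells, had a difference of -0.58 ± 0.05 (adjusted p = 0.00357), and Adam8 one of -0.70 ± 0.06 (adjusted p = 0.00353). Adam12 differed by -0.30 and Adam28 by 0.25, and neither passed the adjusted p. Adam19 was not above background on any array.

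Of the neural ADAM proteins without protease activity, Adam11 differed by -0.07 (adjusted p = 0.411), and Adam22 and Adam23 were not above background on any array. The remaining 22 ADAM genes gave 3 tested genes, Adam1a, Adam6b and Adam26b, with differences from -0.29 to 0.28 that did not pass. Adam1a and Adam6b have near copies in the mouse genome, and a probe may bind the transcripts of both.

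All 4 inhibitors were tested. Timp3 (chromosome 10) was bright in both lines and had 2 probes with the same result. The first had levels of 1.85 and 1.98 on the ID8G arrays and of 4.77 and 4.67 on the GO2 arrays, and the second of 1.73 and 1.75 and of 4.49 and 4.51. With both probes the GO2 arrays stood far above the ID8G arrays, and the spread within a line was small beside that gap. The log2 differences were 2.81 ± 0.08 and 2.76 ± 0.05 (adjusted p = 0.000286 and 0.000189).

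Timp1, a secreted inhibitor of most Mmp enzymes, had levels of 4.75 and 4.64 in ID8G cells and of 5.49 and 5.38 in GO2 cells. The groups did not overlap, and the difference of 0.74 ± 0.07 passed the adjusted p (0.00440) without reaching 2-fold. Timp2, which also takes part in the activation of Mmp2 by Mmp14, had levels of 7.52 and 7.52 in ID8G cells and of 7.75 and 7.93 in GO2 cells with its brighter probe, a difference of 0.32 ± 0.08 (adjusted p = 0.0473). Its other probe differed by -0.09 ± 0.05 (adjusted p = 0.227), so the probes did not share a direction, and neither was called.

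Timp4 (chromosome 6), the inhibitor with the narrowest known tissue range, had levels of -3.21 and -3.62 on the ID8G arrays and of -4.89 and -4.93 on the GO2 arrays, where it was not well above background. The measured difference was -1.49 ± 0.15 (adjusted p = 0.00493), and ID8G cells were at least 1.31-fold higher. The call was lost with normexp background correction, at -0.43, and a second Timp4 probe was not above background on any array.

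**Figure D4:**
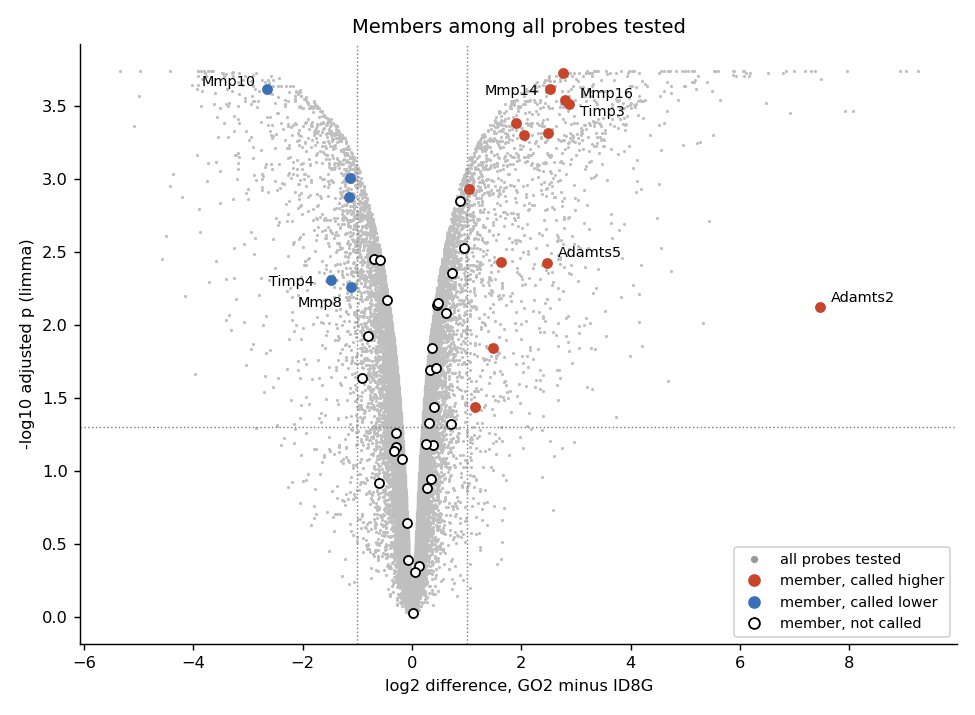
Log2 difference, GO2 minus ID8G (x axis), against -log10 of the adjusted p from limma (y axis) for all 28368 tested probes (grey), with member probes called higher in red, called lower in blue and not called as open circles, and dotted lines at a 2-fold difference and at an adjusted p of 0.05. The Timp3, Mmp14, Mmp16 and Mmp10 probes lie near the top of the plot, and Adamts2, at 7.46, lies farther right and lower down.

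Genes that act with these families but lie outside the rule were taken from a list of 37 genes, of which 23 were tested. The list was drawn up with earlier results of these data known, so its shares describe the list and test nothing. In this list 4 genes were called higher and 1 lower in GO2 cells, or 17.4% and 4.35% of those tested, where 6.44% and 4.33% of all genes with a symbol were, so that the lower share was close to that of all genes. Lrp1, the endocytic receptor that clears several of these proteases and Timp3, was higher by 1.05 ± 0.07 (adjusted p = 0.00155), at 1.33 and 1.22 in ID8G cells and 2.28 and 2.36 in GO2 cells. The Lrp1 difference was just inside the 2-fold limit, and scaling to the spike-ins, which shifted all probes by -0.21, took it below that limit. Thbs1, a matrix protein that binds Mmp enzymes and is cleared through Lrp1, was higher with both of its probes, by 2.07 ± 0.05 with the brighter. Pcolce2, an enhancer of the removal of the carboxy-terminal propeptide of procollagen, was higher by 2.90 ± 0.28 (adjusted p = 0.00446), at -1.81 and -2.61 in ID8G cells and 0.63 and 0.76 in GO2 cells. Tspan33, a tetraspanin that guides Adam10, was higher by 1.48 ± 0.32 (adjusted p = 0.0306), with 1 ID8G array not well above background.

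Pzp, a protease inhibitor of the alpha-2-macroglobulin kind, was lower in GO2 cells, where it was not well above background, and ID8G cells were at least 3.14-fold higher. Of the proenzyme activators, Plat, which activates plasminogen, differed by -0.95 (adjusted p = 0.00142), just outside the 2-fold limit, and Furin by -0.08 (adjusted p = 0.280). Bmp1, the procollagen C-proteinase, had differences of 0.16, 0.85 and 0.08 with its 3 probes, and Rhbdf2, which carries Adam17 to the cell surface, one of -0.71 (adjusted p = 0.00396), and neither was called. The membrane-anchored inhibitor Reck was not well above background on any array.

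**Figure D5:**
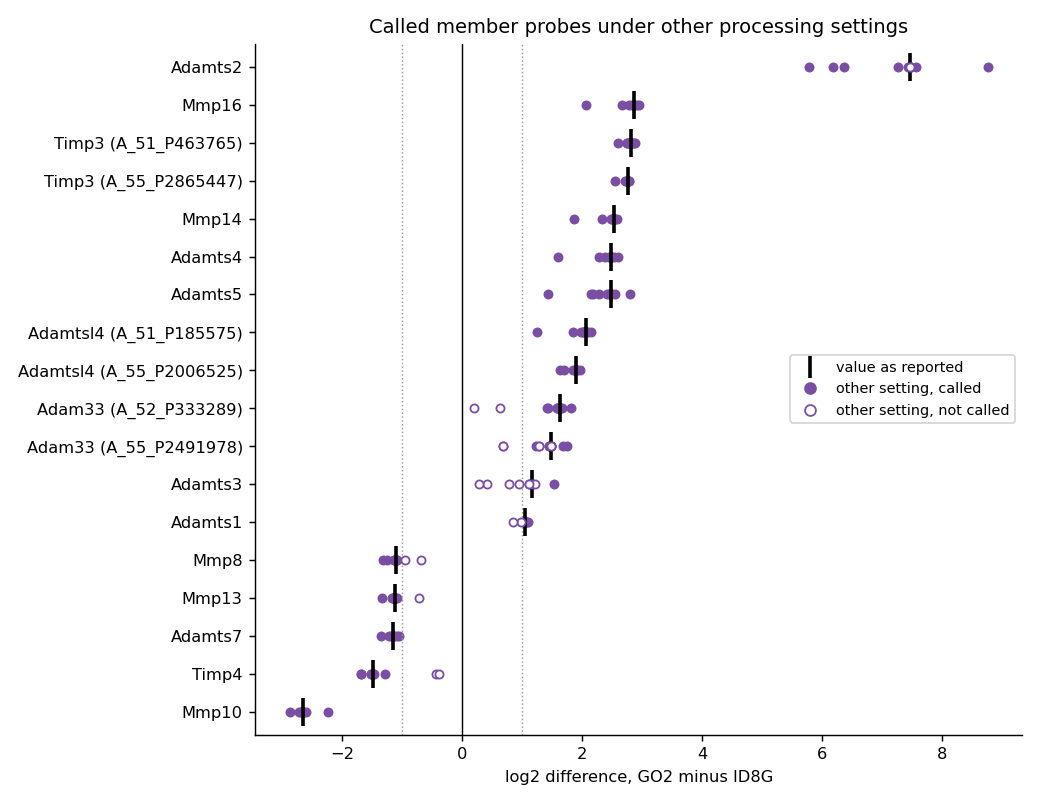
Log2 difference, GO2 minus ID8G (x axis), for the 18 called member probes as reported (black bars) and under the other processing settings in which each was tested (points, filled where the probe was called), with dotted lines at a 2-fold difference and with limma treat and the methods' t-test, which leave the difference as it is, not drawn. No point crossed 0, and the open points belong to Adam33, Adamts1, Adamts2, Adamts3, Mmp8, Mmp13 and Timp4.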

How the data were processed

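Total RNA of 2 cell lines, ID8G and GO2, was measured on 4 Agilent SurePrint G3 Mouse arrays (Cy3, 2 per line, 1 slide, 1 scan). The authors deposited the scanner output of each array, processed intensity per spot with its background made by Feature Extraction 11.5.1.1. They also deposited a value table, whose log2 values equalled intensities scaled to the array's 75th percentile and centred on each probe's median (median gap 0.0005), and which was used as an alternative. The authors analysed intensities in GeneSpring GX, and its settings are not given in the sources used here. Groups and replicate numbers came from the sample labels. No per-sample column was left unused (0).

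Spots marked as outliers (132 to 195 an array) and controls were left out, spots of a probe were averaged, and log2 processed intensity, scaled to the 75th percentile, was fitted with limma 3.58.1 in R 4.3.3 (lmFit, eBayes) on all 4 arrays without a block. Probes were named from RefSeq accessions and promoters from RefSeq (GRCm38.p6), of which 53 member genes had 58 windows. Figures used python 3.11.15 and matplotlib 3.10.9. The fit was tested on simulated arrays with independent noise, its spread shuffled over probes, and known changes. That test does not cover the noise of dim probes, differences near 2-fold or arrays that are technical replicates. A probe not well above background on either array of a line gave a bound against the lowest level well above background. This bound compares means and makes no allowance for the spread of the arrays.

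The members, gene lists and tests were chosen with earlier results of these data known. Genes were named where a probe was called, where they were Timp genes, the brightest of a subfamily or just outside the limits, or called in the list of related genes. Alternatives were normexp background correction on the median pixel (offset 50; a mean signal was not in the files used), quantile normalization, median centering, scaling to 7 spike-ins (which differed by at most 0.278 between lines), other filters and thresholds, limma treat, the deposited value table, the methods' t-test, a variance trend with intensity, the replicate number as a block and each array left out. The slide could not serve as a block, since there was 1.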

Additional observations from a re-analysis of the deposited data

How the results depend on the processing

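No called value changed sign in any setting that tested it, and 9 of the 18 called probes (Timp3 and Adamtsl4 with both probes, Mmp14, Mmp16, Mmp10, Adamts4, Adamts5) were called in every setting that tested them but the methods' t-test. One Adamtsl4 probe, Adamts4 and Adamts5 were not tested where all 4 arrays had to be above background. As reported, 13 member probes (10 genes) were higher and 5 (5 genes) lower, 4 related genes were higher and 1 lower, and the member median was 0.32. Normexp background correction left 9 member probes higher and 2 (2 genes) lower, with 2 related genes higher and 0 lower. With probes above background on all 4 arrays, 6 probes (5 genes) were higher, 0 related genes were lower and the median was 0.21, while without a filter on dim probes it was -0.044, as the dim genes entered. Without a minimum fold, 25 probes (18 genes) were higher and 10 (9 genes) lower, with 7 and 6 related genes. With limma treat 9 probes were higher, 1 probe (1 gene) was lower, and 2 related genes were higher and 0 lower. Scaling to the spike-ins moved all probes by -0.21, gave 2 lower related genes and a median of 0.11, and turned Adam1a, not called, to -0.079. Of the member calls 72.2% were higher ones, against 61.1% with spike-in scaling, 81.8% with normexp, 60% with all 4 arrays above background and also without ID8G replicate 1, and 90% with treat. The methods' t-test called 0 probes and genes in each direction after Benjamini-Hochberg adjustment, and 8 higher and 3 lower at an unadjusted p under 0.05, where limma gave 13 and 5.

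Leaving out each array gave 12 to 13 higher probes (9 to 10 genes), 4 to 8 lower probes (4 to 8 genes), 2 to 4 higher and 1 to 2 lower related genes, and medians of 0.20 to 0.42. Without ID8G replicate 1 the lower probes were 8, as Mmp15, Adam32 and a second Adam8 probe, above background on the other ID8G array alone, entered. Adam1a lay between -0.018, without that array, and 0.28. The spread for a line left with 1 array was taken from the other line. Replicate numbers did not pair the arrays (correlation of deviations 0.0273), and the replicate block called 13 probes higher and 5 lower, with 3 and 1 related genes. The causes of the other changes were not tested. Depth limits genes near background, whose levels have only bounds.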
